A study of Homo sapiens with 5 samples.

Results

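The comparison set the line MKL-1 against MKL-2 and WaGa, gene by gene, in an RNA sequencing table of cultured cells. Levels are in TPM, reads scaled by transcript length and by the library's total, so they can also be compared between genes. All 3 are human cell lines that the labels name as Merkel cell carcinoma with the genotype WT. The comparison took 19232 of the 57905 genes in the table, those that reached 1 TPM in MKL-1, MKL-2 or WaGa. The measure was the gap, which is the distance on log2(TPM + 1) from MKL-1 to the nearer of the other lines and is 0 where MKL-1 lies between them. A gap of 1 is about a doubling of TPM at high levels and more than a doubling at low ones.

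The series profiled 5 lines, each from 1 library without replicates. MCC13, a further Merkel cell carcinoma line, and REH, a pre-B-cell acute lymphoblastic leukemia line, also of genotype WT, were kept out of the comparison and are quoted where they add a level. Every line was grown in RPMI with 10% fetal bovine serum, and each library was made from 500 ng of total RNA by oligo-dT enrichment and a directional kit. The labels record no treatment, passage number or virus status, and a line stands for the tumour of 1 patient, so line and library cannot be told apart.

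Merkel cell carcinoma is an aggressive skin cancer with neuroendocrine features. Its cells carry the transcription factors and granule proteins of Merkel cells, the touch receptors of the skin, and are diagnosed by a dot-like pattern of keratin 20. Many of these tumours are driven by Merkel cell polyomavirus, whose large T antigen binds the retinoblastoma protein, the same protein that the cell's CDK inhibitors act through. MKL-1, MKL-2 and WaGa are widely used as virus-positive lines that grow in suspension.

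TPM values keep no read depth, so the depth behind each value was unknown and no counting interval could be given. Genes at 1 TPM or more numbered 16715 in MKL-1, 16921 in MKL-2 and 16734 in WaGa, and transcripts of the mitochondrial genome took 6.50%, 7.84% and 6.37% of TPM. All 15 markers listed for a neuroendocrine carcinoma of Merkel type were at 1 TPM or more in all 3 lines, with summed levels of 5311 TPM (MKL-1), 6809 TPM (MKL-2) and 9431 TPM (WaGa). None of 5 T and NK cell markers reached 1 TPM in any of the 3, nor did any of the 3 endothelial markers in the table, and 2 of 7 fibroblast markers did in MKL-1 against 3 in each other line. Of 5 B lineage markers, 2 did in MKL-1, 2 in MKL-2 and 3 in WaGa. In the same order, 2, 1 and 2 of 5 keratinocyte markers did, and 0, 2 and 2 of 5 myeloid markers. For melanocyte markers it was 2, 1 and 2 of 4, and for markers of all leukocytes 1, 1 and 0 of 3.

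MKL-1 was the highest of the 3 lines for 7098 genes (36.9%), the lowest for 5490 (28.5%) and between or equal for 6644. It stood above both other lines by a gap of 2 or more for 201 genes, which is 1.05% of those tested, and below both for 121 genes, 0.629%. By the same rule, in either direction, MKL-2 stood apart at 580 genes (3.02%) and WaGa at 449 (2.33%), against 322 (1.67%) for MKL-1, so MKL-1 had the fewest such genes of the 3 lines. Over all tested genes the Pearson correlation was 0.891 between MKL-1 and MKL-2, 0.906 between MKL-1 and WaGa and 0.879 between MKL-2 and WaGa. These describe single pairs of libraries and carry no test. Counts of list members at a gap of 2 are read against the 1.05% above and 0.629% below. Where 3 values are given below they stand in the order MKL-1, MKL-2 and WaGa.

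Of the 201 genes above, 149 were protein-coding, 107 were under 1 TPM in both other lines, and 21 reached 100 TPM in MKL-1. Of the 121 below, 95 were protein-coding, 78 were under 1 TPM in MKL-1 and 63 stood at 10 TPM or more in both other lines. The call was mostly a matter of genes that were present on one side and near 0 on the other. Just inside the limit were C11orf82, with a gap of 2.01 (20.4, 4.33 and 4.13 TPM), and LSS with a gap of -2.002. Just outside were MRAS, with a gap of 1.99 (3.58, 0 and 0.153 TPM), and ASH1L-AS1 with a gap of -1.97 (1.19, 7.58 and 7.89 TPM).

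With 1 line against 2, an exact permutation of labels cannot give a p below 0.333 for any gene. In limma, which was fitted across all 19232 genes with Benjamini-Hochberg adjustment, 0 genes passed, 655 had an unadjusted p under 0.05 and the smallest adjusted p was 0.977. This fit has 1 residual degree of freedom and takes MKL-1 to vary as the other lines do. The genes below are therefore described by their levels and gaps, and no difference named here passed a test.

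**Figure D1:**
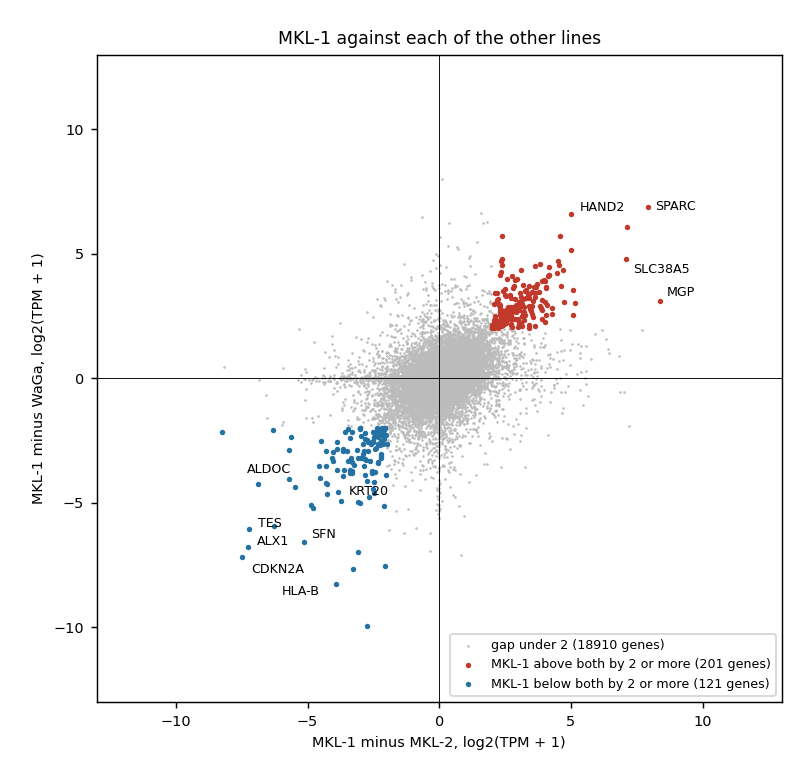
Each point is 1 of 19232 genes, placed by its difference between MKL-1 and MKL-2 (horizontal) and between MKL-1 and WaGa (vertical), both on log2(TPM + 1). Red marks the 201 genes at which MKL-1 stood above both lines by 2 or more and blue the 121 below. SPARC lies farthest out among the genes above by its gap of 6.89, and CDKN2A among those below at -7.17.

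CDKN2A, which encodes the CDK4 and CDK6 inhibitor p16 and the MDM2 inhibitor ARF, had the widest gap below of all named genes. CDKN2A (ENSG00000147889) was listed at 0 in MKL-1, against 179 TPM for MKL-2 and 143 TPM for WaGa, a gap of -7.17. The MCC13 library stood at 246 TPM, and REH was listed at 0. CDKN2B, its neighbour and the gene of the inhibitor p15, was also listed at 0 in MKL-1, with 48.1 TPM for MKL-2 and 4.19 TPM for WaGa, a gap of -2.38. MTAP, on the other side of CDKN2A, encodes the enzyme that recycles methylthioadenosine. It stood at 0.7799 TPM in MKL-1 against 33.6 TPM for MKL-2 and 32.8 TPM for WaGa, a gap of -4.25. The other 2 lines were close to each other at MTAP and CDKN2A and far apart at CDKN2B.

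Genes to either side of this trio were present in MKL-1. KLHL9, the nearest expressed gene beyond MTAP, stood at 33.97 TPM in MKL-1 against 27.5 (MKL-2) and 27.5 (WaGa). DMRTA1, beyond CDKN2B, stood at 18.02, 14.9 and 4.57 TPM, and ELAVL2, an RNA-binding protein of neurons, at 103, 72.2 and 58.4 TPM. All 3 were highest in MKL-1. A protein-coding locus that carries only a clone name, and whose start is placed between those of MTAP and CDKN2A, went the other way. It stood at 26.7, 0.239 and 0.481 TPM, a gap of 4.22. Whether this locus overlaps MTAP was not tested, so the split of reads between them, and with it the low level of MTAP in MKL-1, is uncertain. Farther along the same arm, MOB3B stood at 0.0129, 6.08 and 13.9 TPM. DNA copy number and methylation are not part of these data.

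Other members of the list of CDK inhibitors and cyclins did not share the pattern. CDKN2A and CDKN2B were the only 2 of its 19 tested members below by a gap of 2, a share of 10.5% against 0.629% of all genes, and none was above. CDK4, the kinase that p16 inhibits, was highest in MKL-1 with 483 TPM in MKL-1 against 212 (MKL-2) and 198 (WaGa), a gap of 1.18. CDKN2C, which encodes the related inhibitor p18, was present in all 3 lines at 409, 327 and 217 TPM. In the list of MYC, RB and E2F genes, 0 of 30 were called in either direction, and RB1 itself stood at 69.8, 57.3 and 82.9 TPM.

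The HOXD cluster held a second pair of neighbours that were low in MKL-1. HOX genes encode the transcription factors that set position along the body axis, and each cluster lies in the order of that axis. HOXD11 stood at 0.166 TPM in MKL-1 against 50.7 (MKL-2) and 23.1 (WaGa), a gap of -4.37. HOXD10, next to it, stood at 0.278, 65.6 and 20.2 TPM, a gap of -4.05. MKL-1 was near 0 at both, while the next genes of the cluster, HOXD9 at 21.5, 23.4 and 39.4 TPM and HOXD8 at 22.9, 21.5 and 33.1 TPM, were at like levels in the 3 lines. HOXD3 and HOXD4 were highest in MKL-1, at 45.2 and 33.8 TPM. HOXD10 and HOXD11 were the only 2 of 24 tested HOX genes called, 8.33% against 0.629% of all genes below. No HOXA or HOXC gene of the list was called. HOXC-AS2, a transcript of the HOXC cluster outside the list, was above at 4.28, 0.0284 and 0.00192 TPM, a gap of 2.36. At HOXC4 MKL-1 stood highest, at 23.2, 0.722 and 9.13 TPM, a gap of 1.25.

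**Figure D2:**
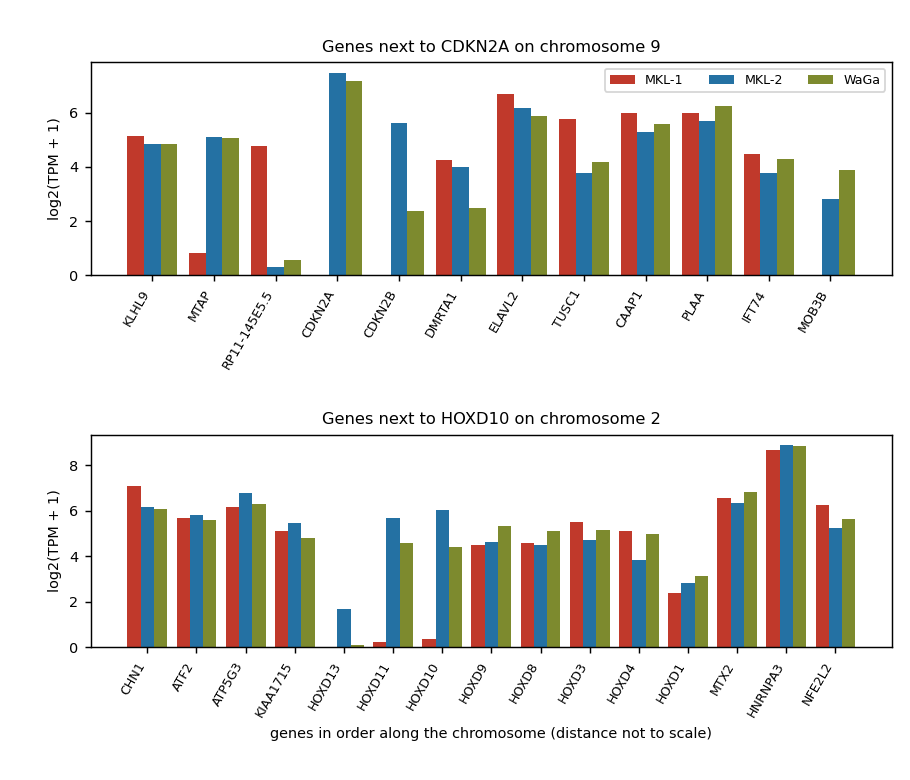
Bars give the level of each gene on log2(TPM + 1), one colour per line and 1 library each, with genes in chromosome order and leaving out genes under 1 TPM in all 3. In the upper panel MTAP, CDKN2A and CDKN2B have little or no bar for MKL-1 while KLHL9 and ELAVL2 do, and in the lower panel the same holds for HOXD11 and HOXD10 beside HOXD9 and HOXD8.

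The genes of cholesterol and fatty acid synthesis stood lower in MKL-1 than in both other lines across most of the pathway. In animal cells acetyl-CoA is built into mevalonate, then squalene and lastly cholesterol, and transcription of the enzymes is set by the sterol-sensing factor SREBF2, with SREBF1 acting more on fatty acids. MKL-1 was the lowest line for 24 of the 30 tested genes, against 28.5% of all tested genes, and the highest for 1. The median difference of MKL-1 from the mean of the others was -1.12 on log2(TPM + 1), against 0.05 for all genes. A gap of 2 below was reached by 5 of the 30 and by none above, and a gap of 1 below by 12 of the 30, against 3.04% of all genes.

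At the head of the pathway, HMGCS1, the synthase that makes HMG-CoA, stood at 180.3 TPM in MKL-1 against 994 (MKL-2) and 829.99 (WaGa), a gap of -2.20. MKL-1 was the lowest line and MKL-2 the highest. In the mevalonate steps, MVK stood at 36.98, 112 and 81.8 TPM, a gap of -1.12. The widest gap of the list belonged to MVD, mevalonate diphosphate decarboxylase, at 42.05, 265 and 429 TPM, a gap of -2.63. IDI1, the isomerase that follows it, stood at 98.4, 292 and 277 TPM, a gap of -1.48. PMVK, the kinase between MVK and MVD, was an exception and lay between the other lines at 80.4, 112 and 75.7 TPM.

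The squalene steps were low as well. FDFT1, squalene synthase, stood at 45.96 TPM in MKL-1 against 512 (MKL-2) and 173 (WaGa), a gap of -1.89. SQLE, squalene epoxidase, stood at 51.1, 208 and 199 TPM, a gap of -1.94. LSS, which closes the ring to lanosterol, stood at 83.01, 426 and 336 TPM, a gap of -2.002. MKL-2 and WaGa lay close together at SQLE and apart at FDFT1. Among the last steps, DHCR7 had a gap of -1.15, while EBP, NSDHL and CYP51A1 were also lowest in MKL-1 with gaps between -0.63 and -0.23.

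Fatty acid genes and regulators of the pathway followed in part. SCD, which puts the double bond into stearate, stood at 162 TPM in MKL-1 against 702 (MKL-2) and 891 (WaGa), a gap of -2.11. FASN, fatty acid synthase, stood at 232, 536 and 451 TPM, a gap of -0.96. INSIG1, which holds the SREBF proteins in the endoplasmic reticulum, stood at 106, 233 and 426 TPM, a gap of -1.12. SREBF2 itself stood at 220.4, 651 and 364 TPM, lowest in MKL-1 by a gap of -0.72. SREBF1 stood at 136, 139 and 1023 TPM, so MKL-1 was level with MKL-2 and WaGa was the line apart. ELOVL6, an elongase of fatty acids, was low in MKL-2 and level in the others at 32.5, 0.565 and 33.6 TPM. ACACB was the only list member highest in MKL-1, at 12.4, 6.62 and 7.597 TPM. The list's median was -1.05 after quantile normalization, -1.13 without mitochondrially encoded genes and -1.23 after centring each line on its median, and MKL-1 was the lowest line for 24, 25 and 26 genes.

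**Figure D3:**
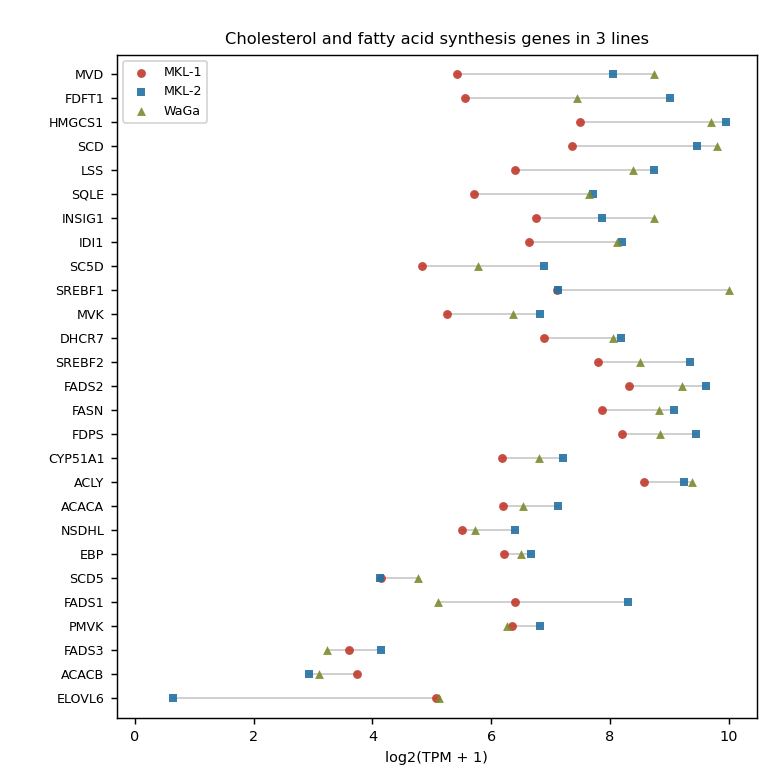
Each line of the plot is 1 of 27 of the 30 tested genes of the list, ordered by the difference of MKL-1 from the mean of MKL-2 and WaGa, with the level in each line on log2(TPM + 1), 1 library per line. MKL-1 (circles) is the leftmost point for 21 of the 27 genes drawn, from MVD at the top, and ELOVL6 at the bottom is the gene at which MKL-2 is far to the left.

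The promoter windows of the members called low in MKL-1 are shown because they stood together in the data and can be searched for the letters of known sterol gene elements. RefSeq windows of 300 bases (250 before to 50 after the start, build GRCh38.p14) were found for 24 of the 30 genes, and for 4 of the 5 called. CCAAT, the core of the box bound by NF-Y, a common partner of SREBF proteins, is in capitals, and reads ATTGG where it lies on the other strand. The windows lie at chr5:43313363-43313662, chr16:88663042-88663341, chr21:46228725-46229024 and chr10:100346983-100347282, the first 3 on the minus strand and the last on the plus strand.
HMGCS1: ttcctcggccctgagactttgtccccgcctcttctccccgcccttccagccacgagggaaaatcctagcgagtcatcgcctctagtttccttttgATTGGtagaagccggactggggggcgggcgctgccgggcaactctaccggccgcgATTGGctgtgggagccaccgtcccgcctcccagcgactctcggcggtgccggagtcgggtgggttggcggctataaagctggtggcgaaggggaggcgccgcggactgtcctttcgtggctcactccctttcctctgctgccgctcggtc
MVD: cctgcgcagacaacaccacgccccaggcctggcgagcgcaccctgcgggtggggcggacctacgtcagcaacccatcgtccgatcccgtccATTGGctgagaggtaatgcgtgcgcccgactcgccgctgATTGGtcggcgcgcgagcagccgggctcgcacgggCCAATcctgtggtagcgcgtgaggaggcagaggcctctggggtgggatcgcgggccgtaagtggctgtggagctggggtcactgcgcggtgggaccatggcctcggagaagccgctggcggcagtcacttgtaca
LSS: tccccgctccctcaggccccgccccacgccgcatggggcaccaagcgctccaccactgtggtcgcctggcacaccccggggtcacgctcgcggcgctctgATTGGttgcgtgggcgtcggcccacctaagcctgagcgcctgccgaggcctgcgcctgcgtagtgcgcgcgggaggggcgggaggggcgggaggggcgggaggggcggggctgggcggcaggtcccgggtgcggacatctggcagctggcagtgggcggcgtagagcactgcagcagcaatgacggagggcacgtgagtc
SCD: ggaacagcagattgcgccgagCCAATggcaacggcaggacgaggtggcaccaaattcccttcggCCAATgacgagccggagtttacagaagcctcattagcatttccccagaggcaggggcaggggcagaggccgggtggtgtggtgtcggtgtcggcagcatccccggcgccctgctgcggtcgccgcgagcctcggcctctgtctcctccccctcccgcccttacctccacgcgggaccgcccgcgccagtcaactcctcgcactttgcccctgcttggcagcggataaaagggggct

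CCAAT was found on either strand in 19 of the 24 matched genes of the list, 79.2%, against 39.7% of 27305 genes with a window and 34.6% of the 35116 windows. A gene with several windows was counted where any of them held the letters. All 4 called genes held it, with 2 in the HMGCS1 window shown and 0 in its other window at chr5:43313132-43313431, 3 in MVD, 1 in LSS and 2 in SCD. It was in all 8 matched genes with a gap of 1 or more below and in 11 of the 16 others, among them FADS3 and SCD5, which lay between the other lines. The sterol regulatory element, searched on both strands in its strict form with 1 free base, was in 0.154% of windows, in 1 of the 24 genes (SREBF2) and in 0 of the 4 called. A match is only a run of letters and says nothing of binding.

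Among genes of Merkel cell identity, ATOH1 and INSM1 were at like levels in the 3 lines and keratin 20 was not. ATOH1, the transcription factor that specifies Merkel cells, stood at 1067 TPM in MKL-1 against 789 (MKL-2) and 869 (WaGa). INSM1, a neuroendocrine zinc finger factor used in diagnosis, stood at 582, 573 and 572 TPM. SOX2, a further factor of Merkel cells, stood at 118, 440.1 and 124 TPM, so that MKL-2 was the line apart. Of 29 tested genes of the Merkel and neuroendocrine list 1 was below by a gap of 2, 3.45% against 0.629% of all genes, and none above. That gene was KRT20, the keratin by which the tumour is recognised, at 14.5, 203 and 466 TPM, a gap of -3.72. KRT20 was thus present in MKL-1 but the lowest of the 3 lines, and was listed at 0 in MCC13 and REH.

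Other simple keratins stood lower by smaller gaps. KRT8 stood at 374 TPM in MKL-1 against 795 (MKL-2) and 974 (WaGa), KRT18 at 86.4, 239 and 185 TPM and KRT19 at 51.7, 206 and 179 TPM, with gaps of -1.09, -1.09 and -1.77. Of 19 tested keratins 6 were below by a gap of 1 or more and 1 above, against 3.04% and 4.75% of all genes. Outside the keratins, HES6, a Notch pathway factor of neural progenitors, stood at 639.5, 1349.98 and 1461 TPM, a gap of -1.08. ELAVL3, a neuronal RNA-binding protein, stood at 33.5, 110.01 and 341 TPM, a gap of -1.68. STMN2, a tubulin-binding protein of growing axons, went the other way at 65.7, 28.7 and 1.92 TPM, a gap of 1.17. The list of granins and prohormone enzymes held 0 called genes of 12 and the synaptic vesicle list 0 of 32. These lists do not hold every gene of their kind. Outside them, SYT2 and SNCB were below with gaps of -2.79 and -2.93, and SYT9 and OTOF were above with gaps of 2.11 and 3.27. CHGA, chromogranin A, stood at 659, 539.6 and 3693 TPM, where WaGa was the line apart. SFN, the 14-3-3 sigma protein of epithelial cells, was low in MKL-1 with 2.53, 123 and 332 TPM, a gap of -5.14.

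Among genes of antigen presentation, MKL-1 was lowest at HLA-B and HLA-C. HLA class I molecules present peptides to T cells, with beta-2 microglobulin as their shared light chain. HLA-B stood at 0.0637 TPM in MKL-1 against 15.1 (MKL-2) and 322 (WaGa), a gap of -3.92, and its neighbour HLA-C at 0.933, 15.5 and 243 TPM, a gap of -3.09. WaGa was the high line for both. HLA genes share long stretches of sequence and vary between people, so the split of reads among them is uncertain. B2M, the light chain, lay between the others at 256, 397 and 82.98 TPM.

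No other gene of the class I list was called. HLA-B and HLA-C were 2 of 22 tested genes below by a gap of 2, 9.09% against 0.629% of all genes, and none was above. TAP1, the peptide transporter, stood at 0.333 TPM in MKL-1 against 40.2 (MKL-2) and 0.399 (WaGa), and the immunoproteasome gene PSMB8 at 2.17, 104 and 1.64 TPM, both low in MKL-1 and WaGa alike. CALR, a chaperone of the pathway, was present in all 3 at 690.1, 1084 and 962 TPM. IRF7, a transcription factor of the interferon response, was above in MKL-1 at 16.2, 0.987 and 1.32 TPM, a gap of 2.89, the only gene called of 35 in the interferon list. CASP4, an inflammatory caspase, stood at 5.38, 0.104 and 0 TPM, a gap of 2.53. IL21R, a cytokine receptor, stood at 5.68, 0.356 and 0.0167 TPM, a gap of 2.30. The nucleic acid sensing list held 0 called genes of 15.

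Transcription factors of development made up several of the widest gaps in both directions. HAND2 (ENSG00000164107), a basic helix-loop-helix factor of heart, limb and sympathetic neurons, stood at 124 TPM in MKL-1 against 2.95 (MKL-2) and 0.301 (WaGa), a gap of 4.98. Its divergent neighbour HAND2-AS1 stood at 25.7, 0.171 and 0.0213 TPM, a gap of 4.51. Both were high in MKL-1 and near 0 in MCC13 and REH. The library kit kept the strand, but the sources used here do not give whether the counting used it. Of the nearest coding genes, FBXO8 on one side stood at 18.8, 10.6 and 8.91 TPM, SCRG1 on the other was near 0 in all 3 lines, and SAP30 beyond it stood at 32.4, 39.4 and 54.2 TPM.

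The start of HAND2 is shown because the windows of HAND2 and HAND2-AS1 run over the same bases on opposite strands. The HAND2 window lies at chr4:173530180-173530479 on the minus strand of GRCh38.p14 in RefSeq, and the 272 bases it shares with the HAND2-AS1 window are in capitals.
HAND2: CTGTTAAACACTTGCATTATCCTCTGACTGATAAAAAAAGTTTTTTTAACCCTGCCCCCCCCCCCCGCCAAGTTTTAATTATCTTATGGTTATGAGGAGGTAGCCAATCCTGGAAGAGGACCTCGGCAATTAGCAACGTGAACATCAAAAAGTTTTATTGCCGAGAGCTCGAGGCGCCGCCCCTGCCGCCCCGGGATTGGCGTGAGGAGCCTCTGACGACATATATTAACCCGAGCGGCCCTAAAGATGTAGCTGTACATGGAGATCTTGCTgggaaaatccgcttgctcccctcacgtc

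It held 15 CG pairs, against a median of 14 over all windows.

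Further factors stood above in MKL-1. NKX2-5, a homeobox factor of the heart, stood at 9.39 TPM in MKL-1 against 0 (MKL-2) and 0 (WaGa), a gap of 3.38, and at 95.4 TPM in MCC13. TGIF2, a homeobox repressor of TGF-beta signalling, stood at 16.8, 0.2901 and 0.597 TPM, a gap of 3.48. NKX2-5 was listed at 0 in both other lines and TGIF2 was under 1 TPM there.

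On the low side, ALX1, a homeobox factor of the developing face, stood at 0.0869 TPM in MKL-1 against 166 (MKL-2) and 118 (WaGa), a gap of -6.77. SOX12, a SoxC factor of neural progenitors, stood at 0.829, 49.7 and 66.8 TPM, a gap of -4.79. NR2F2, the nuclear receptor COUP-TFII, stood at 0.00791, 8.58 and 10.4 TPM, a gap of -3.25. NKX2-4 stood at 0.0654, 9.51 and 13.1 TPM, a gap of -3.30. All of these were under 1 TPM in MKL-1, and NR2F2 and ALX1 were also low in MCC13, at 0.151 and 1.22 TPM, while SOX12 was not, at 67.8 TPM. Over the list of other homeobox and neural factors, 4 of 113 were above and 3 below, 3.54% and 2.65% against 1.05% and 0.629% of all genes.

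Of 475 tested zinc finger genes 3 were above and 3 below, 0.632% each against 1.05% and 0.629% of all genes. ZNF154, a KRAB zinc finger gene of chromosome 19, stood at 22.3 TPM in MKL-1 against 0.492 (MKL-2) and 0.512 (WaGa), a gap of 3.95. The zinc finger genes to either side of it, ZNF551 at 11.3, 11.4 and 12.5 TPM and ZNF671 at 8.92, 6.74 and 7.43 TPM, were at like levels in the 3 lines. ZNF469 had a gap of 2.78 and ZNF853 one of 2.22. On the low side, ZNF334 stood at 0.3697, 25.8 and 24.1 TPM, a gap of -4.20, and ZNF418 at 0.345, 12.3 and 12.9 TPM, a gap of -3.31.

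SPARC, a secreted protein that binds collagen, had the widest gap above. SPARC (ENSG00000113140) reached 240.04 TPM in MKL-1, was listed at 0 in MKL-2 and stood at 1.04 TPM in WaGa, a gap of 6.89. The MCC13 library was higher still at 1067 TPM. TNC, tenascin C of the matrix, stood at 8.66 TPM in MKL-1 against 0.114 (MKL-2) and 0.00736 (WaGa), a gap of 3.12. The matrix list as a whole was mixed, with 2 of its 26 tested genes above (SPARC and TNC, 7.69% against 1.05% of all genes) and S100A4 below at 1.18, 16.1 and 9.86 TPM, a gap of -2.31. This list does not hold every matrix gene. Outside it, VCAN, COL13A1, EMILIN3, SPOCK1, FREM2 and COL11A1 were above, with gaps from 2.06 to 3.25. COL22A1 was below with a gap of -2.52. Integrins and laminins held 0 called genes of 25, and MKL-1 was the highest line for 14 of them, against 36.9% of all tested genes.

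Secreted growth factors were among the genes above. MDK, the heparin-binding factor midkine, was the most abundant of them at 943 TPM in MKL-1 against 84.3 (MKL-2) and 127 (WaGa), a gap of 2.88. FGF7, the keratinocyte growth factor, stood at 22.8, 0.325 and 0.0823 TPM, a gap of 4.17. HGF, the ligand of the MET receptor, stood at 14.8, 1.02 and 0 TPM, a gap of 2.97. MDK was present in all 3 lines, whereas FGF7 was near 0 and HGF at 1.02 TPM or less outside MKL-1. FGF13, an intracellular member of the FGF family that acts on sodium channels, was below at 0.0879, 8.21 and 33.1 TPM, a gap of -3.08. Of 30 tested genes in the growth factor list 2 were above and 1 below, 6.67% and 3.33% against 1.05% and 0.629% of all genes. VEGFA was lowest in MKL-1 at 59.4, 379 and 123 TPM, a gap of -1.04. DDR2, a collagen receptor with tyrosine kinase activity, stood at 9.905, 1.501 and 1.11 TPM, a gap of 2.12. It was the only one called of the 26 tested genes in the receptor tyrosine kinase list. EPHA5, a kinase of that class placed in the axon guidance list, was also above, with a gap of 3.06. WNT7B stood at 0.228, 6.902 and 6.15 TPM, a gap of -2.54.

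Neuronal surface proteins and channels stood on both sides. GABRA5 and GABRB2 encode subunits of the GABA-A receptor. GABRA5 stood at 12.8 TPM in MKL-1 against 0.04501 (MKL-2) and 0 (WaGa), a gap of 3.72, and GABRB2 at 8.18, 0.00804 and 0.0152 TPM, a gap of 3.18. Both were near 0 in the other lines, and they were the 2 called of 32 glutamate and GABA receptor genes, 6.25% against 1.05% of all genes above. NLGN4X, a neuroligin of the synapse, stood at 11.9, 0 and 0.0285 TPM, a gap of 3.65. OLFM3, a secreted olfactomedin protein, stood at 23.3, 0.711 and 0.0173 TPM, a gap of 3.83. CSMD3, a large membrane protein, stood at 33.7, 2.06 and 2.14 TPM, a gap of 3.47.

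Among channels, KCNMB2, a subunit of the calcium-activated potassium channel, stood at 129.99 TPM in MKL-1 against 10.3 (MKL-2) and 20.9 (WaGa), a gap of 2.58. CACNG4, an auxiliary calcium channel subunit, stood at 105, 13.6 and 7.15 TPM, a gap of 2.85. KCNMB2 and CACNG4 were present in all 3 lines and highest in MKL-1. KCNJ5, an inwardly rectifying potassium channel, was below at 1.11, 11.4 and 28.6 TPM, a gap of -2.56. The channel lists counted 1 above and 1 below of 70 potassium channel genes and 1 above of 24 sodium and calcium channel genes.

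Of the axon guidance list 3 of 66 were above, 4.55% against 1.05% of all genes. EPHA5, an ephrin receptor, stood at 9.67 TPM in MKL-1 against 0.284 (MKL-2) and 0 (WaGa), a gap of 3.06. SEMA3C, a secreted semaphorin, stood at 70.6, 12.9 and 1.55 TPM, a gap of 2.36. SLITRK5, a synaptic protein that the list took in by the start of its symbol, stood at 45.03, 6.39 and 7.902 TPM, a gap of 2.37. MCC13 stood at 12.3, 65.4 and 37.5 TPM for EPHA5, SEMA3C and SLITRK5.

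Of 12 tested genes of transmitter handling 2 were below, 16.7% against 0.629% of all genes, and none above, and MKL-1 was the lowest line for 6 and the highest for 2. SLC6A3, the dopamine transporter, stood at 0.997 TPM in MKL-1 against 37.2 (MKL-2) and 49.7 (WaGa), a gap of -4.26. DBH, which turns dopamine into noradrenaline, stood at 0.912, 12.3 and 17.3 TPM, a gap of -2.80. SLC17A6, a vesicular glutamate transporter, was highest in MKL-1 at 24.8, 7.904 and 8.499 TPM, a gap of 1.44. SLC6A11, a GABA transporter, was listed at 0 in MKL-1 and stood at 15.2 TPM for MKL-2 and 9.13 TPM for WaGa, a gap of -3.34. With SLC6A3 and DBH this makes more genes below than the 2 counted, because the list does not hold every gene of its kind.

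Metabolic genes outside the sterol pathway were called in both directions. SLC38A5, a transporter of glutamine and other amino acids, stood at 168 TPM in MKL-1 against 0.238 (MKL-2) and 5.09 (WaGa), a gap of 4.79. SLC44A5, of the choline transporter family, stood at 16.5, 0 and 0.0128 TPM, a gap of 4.11. ALDOC, the aldolase of brain, was low at 2.36, 393 and 62.2 TPM, a gap of -4.23, while ALDOA, the common aldolase, stood at 591, 1353 and 683 TPM. PGAM2, the muscle phosphoglycerate mutase, stood at 0.137, 15.9 and 5.72 TPM, a gap of -2.56. ALDOC and PGAM2 were the 2 called of 33 glycolysis genes, 6.06% against 0.629% of all genes below. For LDHA MKL-2 was the line apart, at 106, 768 and 84.7 TPM.

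ACSS1, a mitochondrial acetyl-CoA synthetase, stood at 0.141 TPM in MKL-1 against 12.8 (MKL-2) and 13.7 (WaGa), a gap of -3.60. MGMT, which removes alkyl groups from guanine in DNA, was listed at 0 in MKL-1 against 15.3 TPM for MKL-2 and 6.81 TPM for WaGa, a gap of -2.97, the only one called of 50 DNA repair genes. GPX7, a peroxidase of the endoplasmic reticulum, stood at 139, 16.6 and 32.9 TPM, a gap of 2.05 that came to 1.95 after median centring. GSTM4 stood at 0.0105, 3.84 and 5.5000 TPM, a gap of -2.26, whereas its near copy GSTM2 was highest in MKL-1 at 19.4, 0.412 and 6.58 TPM, and reads may be split between them. ABCC3, an exporter of organic anions, stood at 23.7, 3.68 and 0.0496 TPM, a gap of 2.397. DNTT, the terminal transferase of lymphocyte precursors, had a gap of 2.93 and was the only one called of 19 genes of the B lineage.

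The remaining genes with the largest gaps above had varied roles. RAB34, a small GTPase of the Golgi and cilium, stood at 56.5 TPM in MKL-1 against 1.3999 (MKL-2) and 0.0867 (WaGa), a gap of 4.58. MYO3A, a myosin of inner ear hair cells, had a gap of 4.13, and AGTR2, the type 2 receptor of angiotensin II, one of 3.91. MYO3A and AGTR2 were at or near 0 in both other lines. GFY, a Golgi protein of olfactory neurons, was present in all 3 lines at 258, 14.5 and 19.6 TPM, a gap of 3.65. ATP10D, a lipid flippase, stood at 21.1, 0.376 and 0.468 TPM and MAP2K6, a kinase upstream of p38, at 12.5, 0.278 and 0.0392 TPM. TMEM159, CPNE8, ZC4H2, NUDT11 and SLC2A14 had gaps of 3.70, 3.64, 3.61, 3.65 and 3.63, and the last 2 have close copies that can share their reads.

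Among the remaining genes below, TES, a LIM domain protein of focal adhesions, stood at 0.01505 TPM in MKL-1 against 149.7 (MKL-2) and 66.8 (WaGa), a gap of -6.06. PTMS, parathymosin, stood at 17.1, 357 and 205 TPM, a gap of -3.50. TP53INP2, an autophagy protein, stood at 5.38, 145 and 102 TPM, a gap of -4.02. TES was near 0 in MKL-1, whereas the other 2 were present at a lower level. RIBC2 was listed at 0 in MKL-1 against 28.1 TPM for MKL-2 and 33.3 TPM for WaGa, and GSPT2, a translation termination factor, at 0 against 22.8 and 10.6 TPM. With CDKN2A and LY6K these were the 4 genes listed at 0 in MKL-1 and at 10 TPM or more in both other lines. TMBIM1, FAM111B, GNAI1 and MAP3K13 had gaps of -3.85, -3.65, -3.39 and -3.33.

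**Figure D4:**
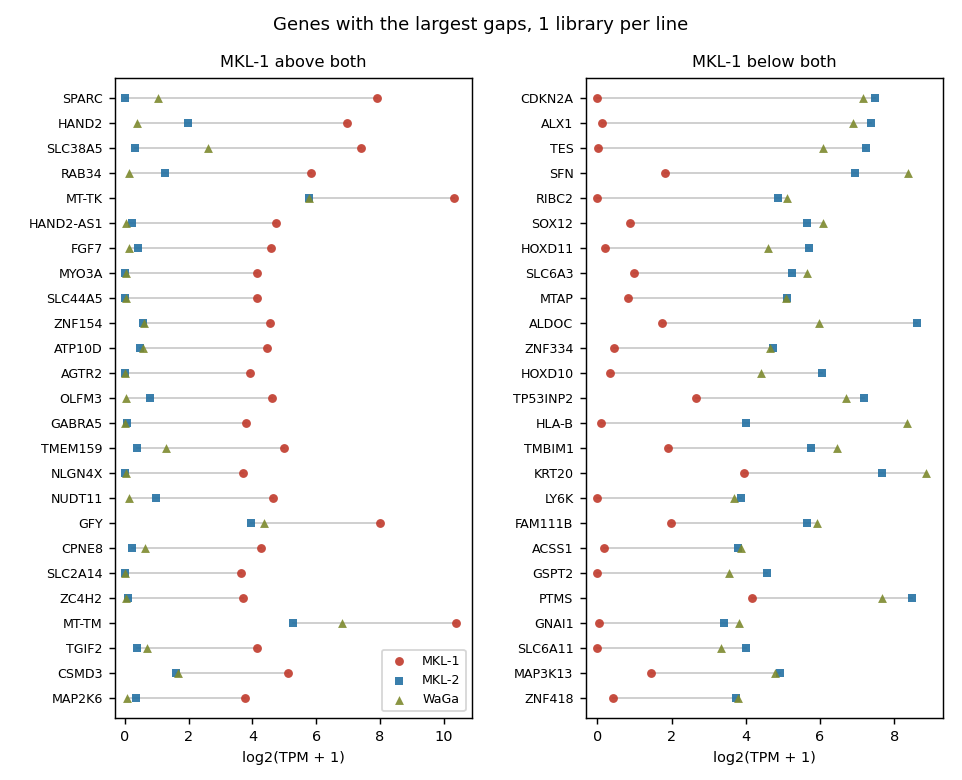
Each panel gives the level of 25 genes on log2(TPM + 1) in MKL-1 (circles), MKL-2 (squares) and WaGa (triangles), 1 library per line, ordered by gap from top to bottom. On the left MKL-1 is apart to the right, with MKL-2 and WaGa near 0 for most genes, and on the right MKL-1 is near 0 for most genes.

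Some of the called genes were neighbours. Of 244 called protein-coding genes with a place in the annotation, 39 lay within 3 expressed coding genes of another called in the same direction, in 19 neighbourhoods, 11 above and 8 below. These included MTAP with CDKN2A and CDKN2B, HOXD11 with HOXD10, HLA-B with HLA-C, and MGMT with EBF3, which was listed at 0 in MKL-1 as well. On the high side they included MGP with RERG, SEMA3C with HGF, and GABRA5 with OCA2. No share for other sets of genes was computed beside this count.

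Whole chromosomes differed by small amounts. Over 10668 genes at 5 TPM or more in all 3 lines the median difference was 0.09 from MKL-2 and 0.10 from WaGa on log2(TPM + 1). Chromosome 17 stood above both lines, at 0.52 and 0.44 over 650 genes, and MKL-1 was the highest line for 62.5% of them against 39.3% of all. Chromosome 3 stood at 0.56 from MKL-2 and 0.27 from WaGa, and chromosome 10 at 0.48 and 0.13. Chromosome 19 stood at -0.04 from MKL-2 and -0.47 from WaGa, so that the low value there was from WaGa alone, and chromosome 14 was similar at 0.03 and -0.38. These are medians over genes of single libraries, with no test.

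**Figure D5:**
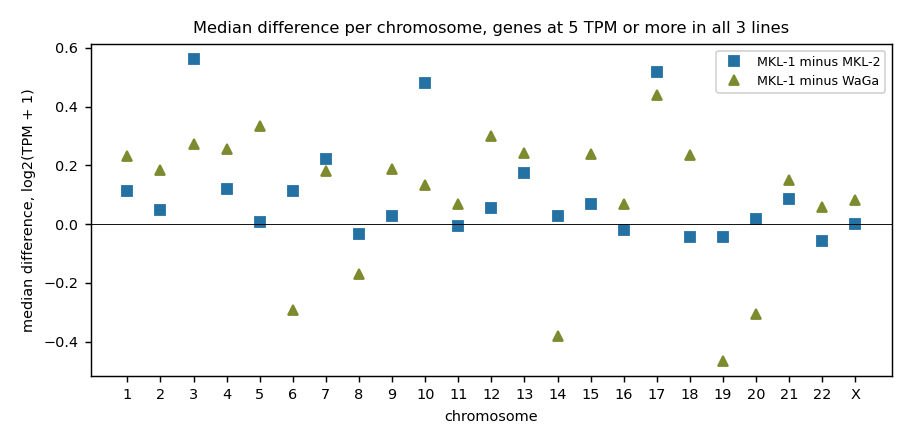
Points give the median difference per chromosome on log2(TPM + 1) between MKL-1 and MKL-2 (squares) and between MKL-1 and WaGa (triangles), over genes at 5 TPM or more in all 3 lines. Chromosome 17 has both points near 0.5, whereas chromosomes 3 and 10 have only the MKL-2 point that high.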

How the data were processed

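RNA sequencing was analysed for MKL-1, MKL-2 and WaGa, 1 library each, grouped by the labelled cell line. The authors deposited a table of TPM values. The submitters' processing notes list SAMtools 0.1.19, StringTie 1.3.5, STAR 2.4.5b and bcl2fastq 2.20, and name hg19 and GRCh37 as builds. What each tool did, which gene annotation was used and whether counting used strand is not given in these sources. TPM sums to about the same total in each library and keeps no depth, so a high level of some genes lowers all others. The table's 1 column of values that matched no sample was not used, and neither was a table of PAX5 exons.

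Genes that reached 1 TPM in any of the 3 lines were compared on log2(TPM + 1), and called at a gap of 2 to the nearer line (Python 3.11.15, pandas 2.3.3). The test was limma 3.58.1 in R 4.3.3 on the same scale, with a variance trend and Benjamini-Hochberg adjustment at 0.05, in which the lone line is assumed to vary as the others do. Both were also run on simulated data as a check of the code. The spread there was set from the median difference between MKL-2 and WaGa, so the run says nothing of error rates in these data. Gene types and gene order came from GENCODE 29, matched by identifier for 18398 of the 19232 genes, without its coordinates. Promoter windows came from RefSeq.

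The comparison and the 54 gene lists were chosen with earlier results of these data known. Named were the 25 genes with the largest gap in each direction among ordinary symbols, every list member with a gap of 2, and up to 4 more per list. Some lists were filled by the start of the symbol. Single values of some list members are not reported here. Neighbours of a gene, further members of the sterol, MHC class I, HOX and Merkel lists, and single genes set beside them were chosen after their values were seen. Other pseudocounts, filters, gap limits and normalizations were tried, and each other line was left out in turn.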

Additional observations from a re-analysis of the deposited data

How the results depend on the processing

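The number of genes called depended on how low levels were treated. With a pseudocount of 0.1 there were 420 genes above and 406 below, and with one of 5 there were 49 and 30, all of the latter among the 201 and 121. A gap limit of 1 gave 913 and 584, and one of 3 gave 52 and 36. Measured from the mean of both other lines the counts were 399 and 304. Leaving out MKL-2 or WaGa gave 516 to 630 genes above and 506 to 587 below. Filters at 5 TPM or none, coding genes only, quantile normalization, median centring and removal of mitochondrially encoded genes kept both counts within 1.5 times. Median centring moved the median of all genes from 0.05 to -0.06. Of 93 named genes at a gap of 2, 48 came under it with a pseudocount of 5, among them HLA-B, HLA-C, MGMT, CDKN2B and LSS, whereas PPP1R9A came under it with quantile normalization and median centring, ZNF404 with the former and GPX7 with the latter. None of these 93 genes changed direction under these settings. A new pseudocount or leaving out a line could not have reversed them, because each was chosen by its gap to the nearer line. Genes at which MKL-1 lay between the other lines did change direction when a line was left out, such as CHGA with -2.48 without MKL-2 and 0.29 without WaGa. MT-TK and MT-TM have no value where mitochondrially encoded genes were removed. limma called 0 genes under 6 of 7 alternatives, and 2003 with no filter (1984 higher and 19 lower among 57905 genes), most of them tested only there. No paired analysis was possible because each line has 1 library.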

Other observations

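Several genes outside the lists stood above both other lines at high levels. They were chosen after their values were seen. MAT2A, the enzyme that makes S-adenosylmethionine, stood at 2524 TPM in MKL-1 against 512 (MKL-2) and 329.9 (WaGa), a gap of 2.30. MGP, a secreted inhibitor of calcification, stood at 592, 0.786 and 68.8 TPM, a gap of 3.09, so that MKL-2 was near 0 and WaGa was not. NME4, a mitochondrial nucleoside diphosphate kinase, stood at 267, 17.9 and 34.6 TPM and CD9, a tetraspanin of the cell surface, at 180.3, 23.05 and 22.9 TPM, with gaps of 2.91 and 2.91. CADM2, a synaptic adhesion molecule, had a gap of 3.05 at 175, 5.71 and 20.3 TPM. ACKR3, a scavenging receptor of CXCL12, stood at 77.5, 10.4 and 5.43 TPM, a gap of 2.78. On the low side, NFASC, an adhesion protein of axons, stood at 10.6, 114 and 51.3 TPM, a gap of -2.17, and HSPA1A, a heat shock protein with a near-identical copy, at 20.2, 148 and 113 TPM, a gap of -2.43. LGALS7 and LGALS7B, copies of the galectin-7 gene whose reads cannot be told apart with certainty, were lowest in MKL-1 with gaps of -2.75 and -3.27, and WaGa was the high line at 2578 and 2060.3 TPM.

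Some transfer RNA genes of the mitochondrial genome also stood above, namely MT-TK, MT-TM, MT-TD and MT-TQ. No other gene of that class was called, and no share for the class was computed. MT-TK stood at 1282 TPM in MKL-1 against 53.3 (MKL-2) and 53.5 (WaGa), a gap of 4.56, and MT-TM at 1327, 38.1 and 112 TPM, a gap of 3.55. MT-TD and MT-TQ had gaps of 2.399 and 2.37. The 13 protein-coding genes of the same genome held no gap of 2, and summed to 49107 TPM in MKL-1, 58515 in MKL-2 and 46266 in WaGa. MT-ND2 was the only one of them with a gap of 1 or more, at 5159, 2470.1 and 2083 TPM, a gap of 1.06. Ribosomal protein genes leaned upward together by less than the limit, with 0 of 82 called, MKL-1 the highest line for 56 and a median difference of 0.32 from the mean of the others, against 0.05 for all genes. Sums over the 82 genes were 97282, 74953 and 82853 TPM. Whether library preparation had a part in either pattern was not tested.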
